A study of Saccharomyces cerevisiae with 6 samples.

Results

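The 10 genes described here encode transcription factors and co-regulators that time gene expression in the yeast cell cycle: *YHP1*, *YOX1*, *SWI4*, *SWI6*, *MBP1*, *NRM1*, *WHI5*, *FKH1*, *FKH2* and *NDD1*. They were chosen by symbol from the 5925 genes listed in the files, and all 10 passed the filter on low counts. RNA was read from *Saccharomyces cerevisiae* in 6 libraries of poly(A)-selected RNA, 3 labelled BSGX001 (thi2Δ) and 3 labelled BSGX001. Both strains derive from CEN.PK 113-5D and share, as the labels spell it, Ru-XI, XK, gre3::PPP, cox4delta and adaptive evolution in xylose, and BSGX001 (thi2Δ) also carries thi2delta. Both were sampled at 20 h in medium holding glucose and xylose at 20 g/L each, which the labels call the GX stage, the xylose consumption phase after glucose had been used up. The comparison sets the strain labelled as lacking *THI2*, which encodes an activator of thiamine synthesis genes, against its parent at that stage.

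Entry into the cell cycle in budding yeast is governed by a pair of related complexes. SBF consists of Swi4, which binds DNA, and Swi6, and MBF consists of Mbp1, which binds DNA, and the same Swi6. Whi5 holds SBF inactive until the G1 cyclin kinase Cln3-Cdk1 acts on it, and Nrm1 closes MBF transcription after G1. Yhp1 and Yox1 are homeodomain repressors that act beside Mcm1 at early cell cycle boxes (ECB), where they confine genes such as *SWI4* and *CLN3* to the interval between mitosis and G1. Later in the cycle Fkh2, with Mcm1 and the coactivator Ndd1, drives the CLB2 cluster of mitotic genes, and Fkh1 shares part of this role.

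The promoters of *YHP1*, *YOX1* and *SWI4* each held a Mcm1 box, and the stretch around it is shown for these 3. They were chosen because Yhp1 and Yox1 act beside Mcm1 at early cell cycle boxes, and *SWI4* is among the genes confined there. Sequences are the RefSeq R64 reference of strain S288C, not CEN.PK, read 5′ to 3′ on the strand of the gene. Capitals mark matches, on either strand, to the Mcm1 box, to the SBF motif CNCGAAA (SCB), to the MBF motif ACGCGT (MCB), to the forkhead motif GTAAACA or to the homeodomain core TAATTA. The *YHP1* stretch (chrIV:1362454-1362583, minus strand) holds an SCB, a Mcm1 box and a forkhead motif, in this order. The *YOX1* stretch (chrXIII:221015-221082, plus strand) holds 2 Mcm1 boxes. The *SWI4* stretch (chrV:386309-386392, minus strand) holds an MCB, an SCB, a homeodomain core and a Mcm1 box, in this order. No match overlapped another within these stretches.
YHP1 upstream, 402 to 273 bases before the start codon: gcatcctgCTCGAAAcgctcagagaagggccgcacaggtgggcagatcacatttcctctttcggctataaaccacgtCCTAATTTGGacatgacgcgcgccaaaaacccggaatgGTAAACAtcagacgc
YOX1 upstream, 391 to 324 bases before the start codon: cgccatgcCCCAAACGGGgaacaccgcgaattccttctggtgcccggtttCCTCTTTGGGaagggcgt
SWI4 upstream, 516 to 433 bases before the start codon: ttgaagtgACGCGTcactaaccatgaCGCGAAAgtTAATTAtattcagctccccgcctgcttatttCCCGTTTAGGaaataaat

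Shorter windows are shown for *NRM1*, the remaining member with a Mcm1 box, and for *NDD1*, *FKH1* and *FKH2*, which hold the motif bound by the forkhead factors. They lie at chrXIV:642446-642475 on the plus strand (*NRM1*), at chrXV:1036630-1036658 and chrXV:1036688-1036716 on the minus strand (*NDD1*, with an SCB in the first), at chrIX:102390-102418 on the minus strand (*FKH1*) and at chrXIV:498539-498567 on the minus strand (*FKH2*).
NRM1 Mcm1 box: cgtcgacgcgCCTTTTTAGGctagaaaata
NDD1 SCB: gtaaccctcctCGCGAAAagaaacgggac
NDD1 forkhead motif: atagcattccaGTAAACAagtttaggtca
FKH1 forkhead motif: ccatggatgagGTAAACAaaaaaatggaa
FKH2 forkhead motif: catttctaaagGTAAACAaaaaagtgaca

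Over the 600 bases before the start codon, the Mcm1 box was found in 4 of the 10 members (*YHP1*, *YOX1*, *SWI4* and *NRM1*) and in 16.2% of 5999 promoters of the same length. The SCB motif was found in 4 members (*YHP1*, *YOX1*, *SWI4* and *NDD1*) and in 24.7% of promoters. The forkhead motif was found in 5 members (*YHP1*, *WHI5*, *FKH1*, *FKH2* and *NDD1*), against 12% of promoters. The homeodomain core was found in 4 members (*YHP1*, *YOX1*, *SWI4* and *MBP1*), against 27.2% of promoters, and the MCB motif in *YOX1* and *SWI4*, against 6.33% of promoters. None of these letters stood in the window before *SWI6*. A match is a string of letters in the reference and shows neither binding nor an effect.

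Library totals were 7613438 to 12255688 counts in the libraries labelled thi2Δ and 7584920 to 10073703 counts in the BSGX001 libraries. *THI2* itself had 128, 90 and 141 counts in the libraries labelled thi2Δ and 215, 203 and 187 counts in BSGX001, and was lower (log2 fold change −1.10, SE 0.14, adjusted p = 6.32e-08). Reads on *THI2* were thus present in every library labelled thi2Δ, at 46.6% of the BSGX001 level. A gene removed whole from all cells would leave no RNA of its own, and the origin of these reads was not tested. The labels do not say how much of the gene was removed, and every direction below rests on them. Genes of chromosome I (85 tested, median log2 fold change 0.99) and of a chromosome XII segment from *ECM22* to *GAS2* (107 tested, median 1.06) stood at about doubled level in the libraries labelled thi2Δ, and none of the 10 members lies in either region. Over all genes tested 26.1% were called higher and 25.2% lower in the libraries labelled thi2Δ, and the marker counts that follow stand against these shares. CPM here are counts scaled to a library size adjusted by the trimmed mean of M-values (TMM), not to library totals alone. The a-specific genes summed to 447 to 516 CPM in the libraries labelled thi2Δ and 394 to 429 CPM in BSGX001. Of these 7 genes, 4 were higher and none was lower. The alpha-specific genes summed to 199 to 210 CPM in the libraries labelled thi2Δ and 236 to 243 CPM in BSGX001, with 1 of 4 lower, and the meiosis and sporulation genes to 239 to 248 CPM in the libraries labelled thi2Δ and 207 to 220 CPM in BSGX001, with 2 of 9 higher and none lower. Scaled by library totals alone, 6 of the 7 a-specific and 1 of the 4 alpha-specific genes were higher. So were 5 of the 9 meiosis and sporulation genes, and none of the 3 lists held a lower gene. The shares of all genes were then 51.9% higher and 10.3% lower. *STE3*, the alpha-specific gene called lower with TMM, was not called (log2 fold change −0.12, adjusted p = 0.131). Median log2 fold changes of the a-specific, alpha-specific and meiosis and sporulation genes were 0.27, −0.18 and 0.19 with TMM. With library totals alone they were 0.49, 0.031 and 0.41, and the sums above were not taken on that scale. Every gene of these 3 lists had over 10 counts in at least 1 library. The meiosis and sporulation genes *SPS4* and *SPO11* were low throughout, at 12 to 40 and 16 to 47 counts per library. The part of these lists in the results below was not tested.

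*YHP1* was the member with the largest difference between the strains, 1.71 times as high in the libraries labelled thi2Δ as in BSGX001, and *SWI6*, *WHI5* and *NDD1* stood at 0.80, 0.82 and 0.79 times their BSGX001 levels. Of the 10 genes, 5 passed the test at an adjusted p under 0.05: *YHP1* and *YOX1* were higher, and *SWI6*, *WHI5* and *NDD1* were lower. *SWI4*, *MBP1*, *NRM1*, *FKH1* and *FKH2* were not called. Over all 5774 genes tested, 51.3% were called, 26.1% as higher and 25.2% as lower, so the members were called at about the share of any genes. Their median log2 fold change was −0.075, against 0.0093 over all genes. The RNA came from whole cultures, so a different share of cells in a cycle phase and a different amount of RNA per cell cannot be told apart.

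**Figure D1:**
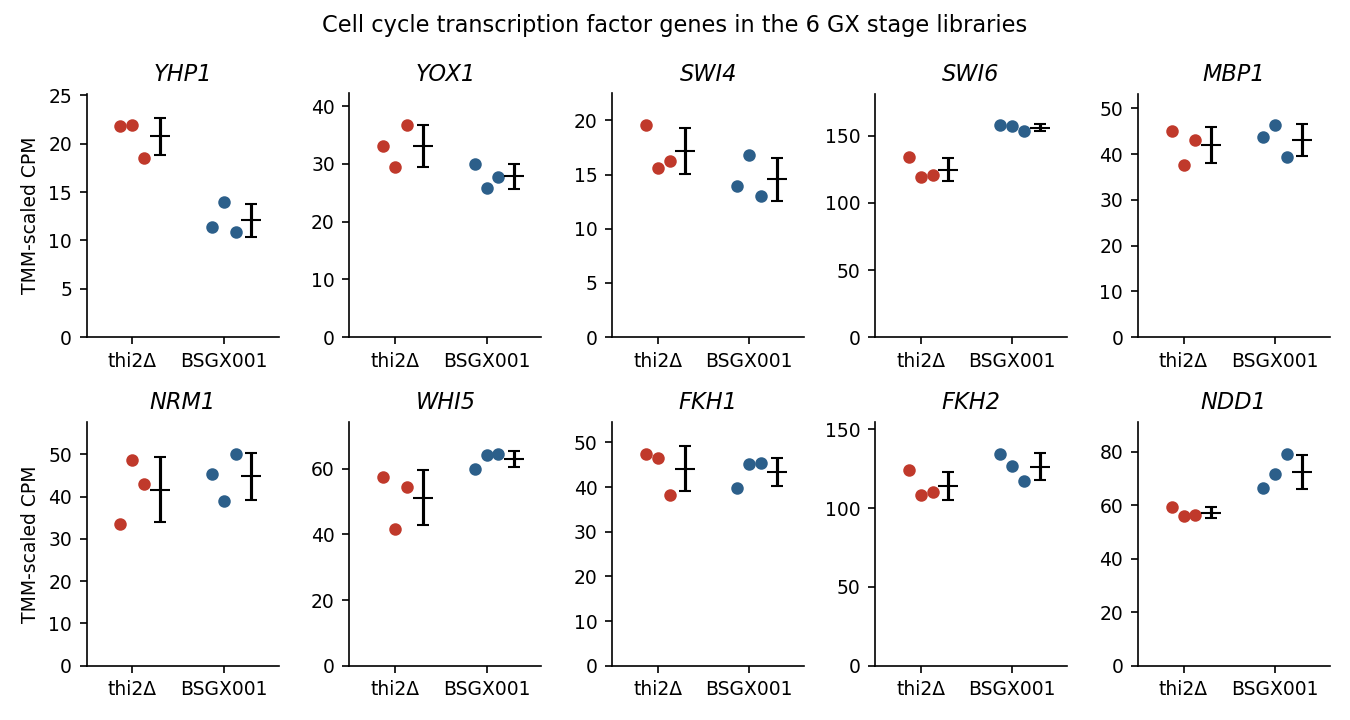
CPM, scaled by TMM, of each of the 10 genes in the 3 libraries labelled BSGX001 (thi2Δ) (left, red) and the 3 BSGX001 libraries (right, blue); points are libraries and bars are the mean ± SD. On this scale the strains do not overlap for *YHP1*, *SWI6*, *WHI5* and *NDD1*.

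The homeodomain repressor gene *YHP1* (YDR451C, chromosome IV, 1361120 to 1362181, minus strand, 1 coding exon) had 285, 181 and 188 counts in the libraries labelled thi2Δ, against 108, 116 and 75 counts in BSGX001. Scaled by the trimmed mean of M-values (TMM), these were 21.9, 21.9 and 18.5 CPM in the libraries labelled thi2Δ, against 11.4, 14.0 and 10.8 CPM in BSGX001. The lowest library labelled thi2Δ stood well above the highest BSGX001 library. *YHP1* averaged 20.8 ± 1.92 CPM in the libraries labelled thi2Δ and 12.1 ± 1.70 CPM in BSGX001 (SD, n = 3 each), a log2 fold change of 0.78 (SE 0.14, 95% interval 0.50 to 1.06, adjusted p = 1.91e-05) or 1.71-fold. This change was larger in size than that of 94.4% of the genes tested, and it was called in every setting tried, with 0.71 to 0.89 on the log2 scale when single libraries were left out. The 10 genes nearest to *YHP1* on its chromosome had log2 fold changes of −0.52 to 0.43, all below that of *YHP1*, and no RefSeq gene overlaps the coordinates of *YHP1* or of another member.

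Its paralog *YOX1* (YML027W, chromosome XIII, 221406 to 222563, plus strand), the other homeodomain repressor, had 432, 243 and 372 counts in the libraries labelled thi2Δ and 285, 213 and 192 counts in BSGX001. On the CPM scale *YOX1* had 33.1, 29.4 and 36.7 in the libraries labelled thi2Δ and 30.1, 25.8 and 27.7 in BSGX001. The second library labelled thi2Δ fell below the first BSGX001 library, so the strains overlapped in CPM. In FPKM, scaled by library total and length, *YOX1* had 27.56 to 34.35 in the libraries labelled thi2Δ and 20.66 to 24.43 in BSGX001, without overlap. With library totals as the only scaling *YOX1* was called higher (log2 fold change 0.46, adjusted p = 0.000554). *YOX1* averaged 33.1 ± 3.65 CPM in the libraries labelled thi2Δ and 27.9 ± 2.15 CPM in BSGX001 (SD, n = 3 each), and its log2 fold change of 0.25 (SE 0.10, 95% interval 0.036 to 0.46, adjusted p = 0.0461) lay just inside the threshold. The call was lost with size factors by median ratio (adjusted p = 0.0501), with DESeq2 (adjusted p = 0.0989), with a replicate block (log2 fold change 0.24, adjusted p = 0.0573), without the first or the third library labelled thi2Δ (adjusted p = 0.0845 and 0.248) and without the second or the third BSGX001 library (adjusted p = 0.185 and 0.0979).

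*SWI4* (YER111C, chromosome V, 382595 to 385876, minus strand) encodes the DNA-binding subunit of SBF. It had 255, 129 and 165 counts in the libraries labelled thi2Δ and 132, 139 and 90 counts in BSGX001. *SWI4* reached 19.6, 15.6 and 16.3 CPM in the libraries labelled thi2Δ and 13.9, 16.8 and 13.0 CPM in BSGX001, where the second library exceeded the 2 lower libraries labelled thi2Δ. The log2 fold change was 0.24 (SE 0.14, 95% interval −0.039 to 0.52, adjusted p = 0.143), nearly the size of the *YOX1* value on fewer counts. In FPKM, which follow library totals, *SWI4* had 6.34, 5.16 and 5.38 in the libraries labelled thi2Δ and 3.99, 4.76 and 3.62 in BSGX001, and the strains did not overlap. With library totals as the only scaling *SWI4* was called higher (log2 fold change 0.46, adjusted p = 0.00654).

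*SWI6* (YLR182W, chromosome XII, 517940 to 520351, plus strand), the subunit that SBF and MBF share, had the highest counts of the 10 genes in total, with 1753, 986 and 1227 in the libraries labelled thi2Δ and 1498, 1302 and 1061 in BSGX001. These were 134, 119 and 121 CPM in the libraries labelled thi2Δ, against 158, 157 and 153 CPM in BSGX001. On this scale all 3 BSGX001 libraries lay close together and above every library labelled thi2Δ. *SWI6* was not called with library totals as the only scaling (log2 fold change −0.11, adjusted p = 0.190). *SWI6* averaged 125 ± 8.25 CPM in the libraries labelled thi2Δ and 156 ± 2.54 CPM in BSGX001 (SD, n = 3 each), a log2 fold change of −0.32 (SE 0.071, 95% interval −0.47 to −0.18, adjusted p = 0.000387).

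*MBP1* (YDL056W, chromosome IV, 352877 to 355378, plus strand), the DNA-binding subunit of MBF, had 45.2, 37.6 and 43.1 CPM in the libraries labelled thi2Δ and 43.8, 46.3 and 39.3 CPM in BSGX001. The strains covered nearly the same range, and the 95% interval of the log2 fold change ran from −0.22 to 0.15 (adjusted p = 0.768). *NRM1* (YNR009W, chromosome XIV, 642690 to 643439, plus strand), the corepressor of MBF, had 33.5, 48.6 and 42.9 CPM in the libraries labelled thi2Δ and 45.3, 38.9 and 50.1 CPM in BSGX001. It had the widest spread of the 10 genes relative to its mean in the libraries labelled thi2Δ, and its interval of −0.34 to 0.11 on the log2 scale also spanned 0 (adjusted p = 0.404).

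*WHI5* (YOR083W, chromosome XV, 479533 to 480420, plus strand), the repressor of SBF in G1, had 57.5, 41.6 and 54.4 CPM in the libraries labelled thi2Δ and 60.1, 64.1 and 64.6 CPM in BSGX001. Every library labelled thi2Δ was below every BSGX001 library, and the second was the lowest by a wide gap. *WHI5* averaged 51.2 ± 8.40 CPM in the libraries labelled thi2Δ and 62.9 ± 2.46 CPM in BSGX001 (SD, n = 3 each), a log2 fold change of −0.29 (SE 0.093, 95% interval −0.48 to −0.095, adjusted p = 0.0116). Without the second library labelled thi2Δ the log2 fold change was −0.17 and was not called (adjusted p = 0.120). *WHI5* was also not called with library totals as the only scaling (log2 fold change −0.071, adjusted p = 0.519).

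Of the mitotic factors, *NDD1* (YOR372C, chromosome XV, 1034807 to 1036471, minus strand), the coactivator of Fkh2, had 59.4, 55.8 and 56.3 CPM in the libraries labelled thi2Δ and 66.5, 71.5 and 79.2 CPM in BSGX001. On this scale the libraries labelled thi2Δ were tightly grouped and all below BSGX001. *NDD1* was not called with library totals as the only scaling (log2 fold change −0.12, adjusted p = 0.205). *NDD1* averaged 57.2 ± 1.96 CPM in the libraries labelled thi2Δ and 72.4 ± 6.38 CPM in BSGX001 (SD, n = 3 each), a log2 fold change of −0.33 (SE 0.081, 95% interval −0.50 to −0.17, adjusted p = 0.00104).

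The forkhead genes themselves did not pass the test. *FKH1* (YIL131C, chromosome IX, 100781 to 102235, minus strand) had 47.5, 46.6 and 38.3 CPM in the libraries labelled thi2Δ and 39.8, 45.1 and 45.4 CPM in BSGX001 (log2 fold change 0.028, 95% interval −0.16 to 0.22, adjusted p = 0.825). *FKH2* (YNL068C, chromosome XIV, 495701 to 498289, minus strand) had 124, 108 and 110 CPM in the libraries labelled thi2Δ and 134, 127 and 117 CPM in BSGX001 (log2 fold change −0.14, 95% interval −0.30 to 0.0099, adjusted p = 0.111). For *FKH1* the highest and the lowest library were both labelled thi2Δ, and for *FKH2* only the first library labelled thi2Δ reached into the BSGX001 range. Without that library *FKH2* was called lower (log2 fold change −0.21, adjusted p = 0.0260).

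In 4 of the 10 genes the TMM-scaled CPM of the strains did not overlap, 1 higher and 3 lower in the libraries labelled thi2Δ. The same held for 57.8% of all genes tested. In FPKM *YHP1* again did not overlap, but the 3 lower genes did. The libraries labelled thi2Δ and BSGX001 had 53.69 to 59.3 and 57.99 to 61.65 FPKM for *SWI6*, 50.88 to 68.91 and 63.72 to 67.03 for *WHI5*, and 36.37 to 37.98 and 37.62 to 43.39 for *NDD1*. The lower calls depended on the scaling. TMM scaling allows for unequal shares of counts in the most abundant genes, which for the top 50 were 21.2% to 21.7% in the libraries labelled thi2Δ and 25.5% to 26.6% in BSGX001, and library totals do not. With totals alone the median log2 fold change of all genes was 0.22, and 83.4% of calls were higher in the libraries labelled thi2Δ, against 50.8% with TMM. Under library totals *SWI6* (−0.11), *WHI5* (−0.071) and *NDD1* (−0.12) kept their sign on the log2 scale and were not called, and *YHP1* (0.99), *YOX1* (0.46), *SWI4* (0.46) and *FKH1* (0.24) were called higher, 4 of 10 beside 51.9% of all genes. *MBP1*, *NRM1* and *FKH2* changed sign, without a call under either scaling. Set against the median of all genes, *YHP1* stood higher and *SWI6*, *WHI5* and *NDD1* lower under both scalings. A change of scaling moves all genes by nearly the same amount, so this agreement is no second check on the calls.

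**Figure D2:**
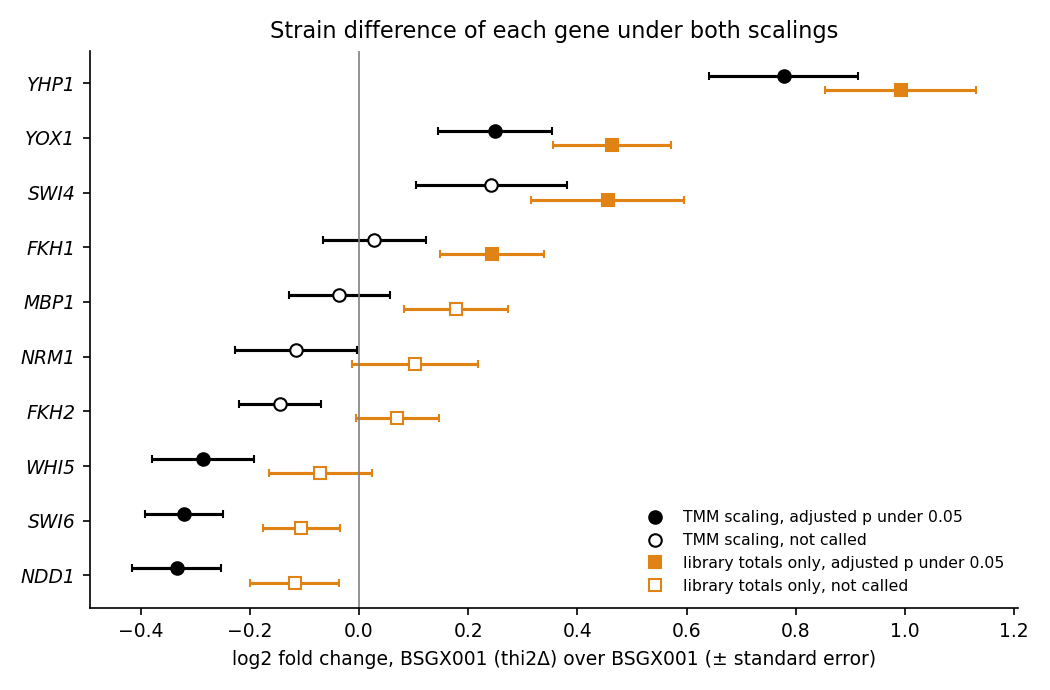
Log2 fold change, BSGX001 (thi2Δ) over BSGX001, of each of the 10 genes with its standard error, with TMM scaling (black circles) and library totals only (orange squares); filled symbols passed an adjusted p under 0.05. All 10 values move up together under library totals, and *YHP1*, at 0.78 and 0.99, stands apart from the other 9 in both.

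The level of a gene relative to the others was read from FPKM, which the authors scaled to coding length and library total. *WHI5* had the highest FPKM in both strains, with 62.0 ± 9.76 in the libraries labelled thi2Δ and 65.7 ± 1.75 in BSGX001, and *SWI4* the lowest, with 5.63 ± 0.627 in the libraries labelled thi2Δ and 4.12 ± 0.581 in BSGX001 (SD, n = 3 each). By mean FPKM the order in the libraries labelled thi2Δ was *WHI5*, *NRM1*, *SWI6*, *FKH2*, *NDD1*, *FKH1*, *YOX1*, *YHP1*, *MBP1* and *SWI4*. In BSGX001 *SWI6* stood above *NRM1* and *MBP1* above *YHP1*, and the other places were the same. *YHP1* had 21.1 ± 1.87 FPKM in the libraries labelled thi2Δ and 10.6 ± 1.53 FPKM in BSGX001, and *MBP1* had 18.1 ± 1.53 FPKM in the libraries labelled thi2Δ and 16.0 ± 1.49 FPKM in BSGX001.

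Not all neighbours in that order were separated by their libraries. In the libraries labelled thi2Δ the ranges of *WHI5* and *NRM1*, of *NRM1* and *SWI6*, of *FKH1* and *YOX1*, and of *YHP1* and *MBP1* overlapped. In BSGX001 the ranges of *SWI6* and *NRM1*, of *NRM1* and *FKH2*, and of *FKH2* and *NDD1* overlapped, while *YHP1*, at 9.31 to 12.3 FPKM, lay below *MBP1*, at 14.3 to 17.2 FPKM. Among all genes listed, *SWI4* stood at percentile 5.06 of mean FPKM, *YHP1* at 16.2 and *WHI5* at 55.7, so that no member was among the abundant transcripts.

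**Figure D3:**
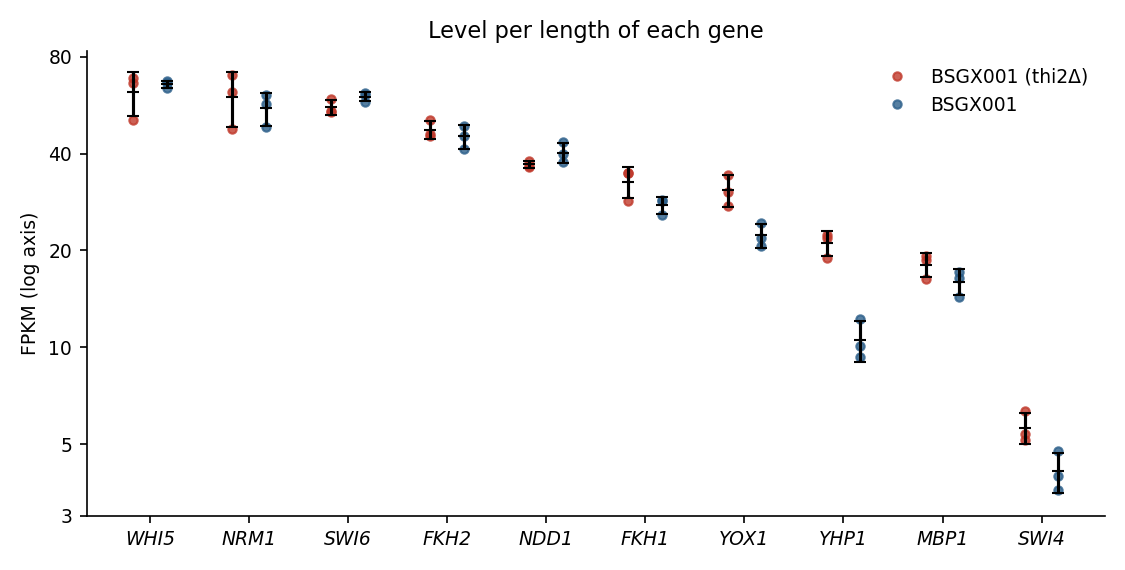
FPKM, on a log axis, of the 10 genes in the 3 libraries labelled BSGX001 (thi2Δ) (left of each pair, red) and the 3 BSGX001 libraries (right, blue), with mean ± SD, in the order of the means in BSGX001 (thi2Δ). *SWI4*, at 3.62 to 6.34 FPKM, is lowest in all 6 libraries, and *YHP1* shows the widest gap between the strains.

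Ratios between members within a library do not depend on how libraries are scaled. *SWI4* relative to its MBF counterpart *MBP1* gave FPKM ratios of 0.330, 0.316 and 0.288 in the libraries labelled thi2Δ and 0.243, 0.277 and 0.252 in BSGX001. *SWI4* relative to its inhibitor *WHI5* gave 0.0920, 0.102 and 0.0810 in the libraries labelled thi2Δ and 0.0627, 0.0710 and 0.0545 in BSGX001. Both ratios were higher in every library labelled thi2Δ than in any BSGX001 library. The differences were 0.28 and 0.55 on the log2 scale, each with p = 0.1 in a two-sided exact permutation test (adjusted p = 0.3 over 6 ratios), which is the smallest p that 3 libraries against 3 allow.

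*YHP1* relative to *YOX1* gave FPKM ratios of 0.719, 0.812 and 0.551 in the libraries labelled thi2Δ and 0.413, 0.594 and 0.426 in BSGX001. The third library labelled thi2Δ fell below the second BSGX001 library, and the difference of 0.54 on the log2 scale had p = 0.2 in the exact permutation test. The remaining ratios overlapped between the strains: *NRM1* over *MBP1* differed by −0.073, *FKH1* over *FKH2* by 0.16 and *NDD1* over *FKH2* by −0.19 on the log2 scale (exact permutation p of 0.8, 0.5 and 0.3).

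**Figure D4:**
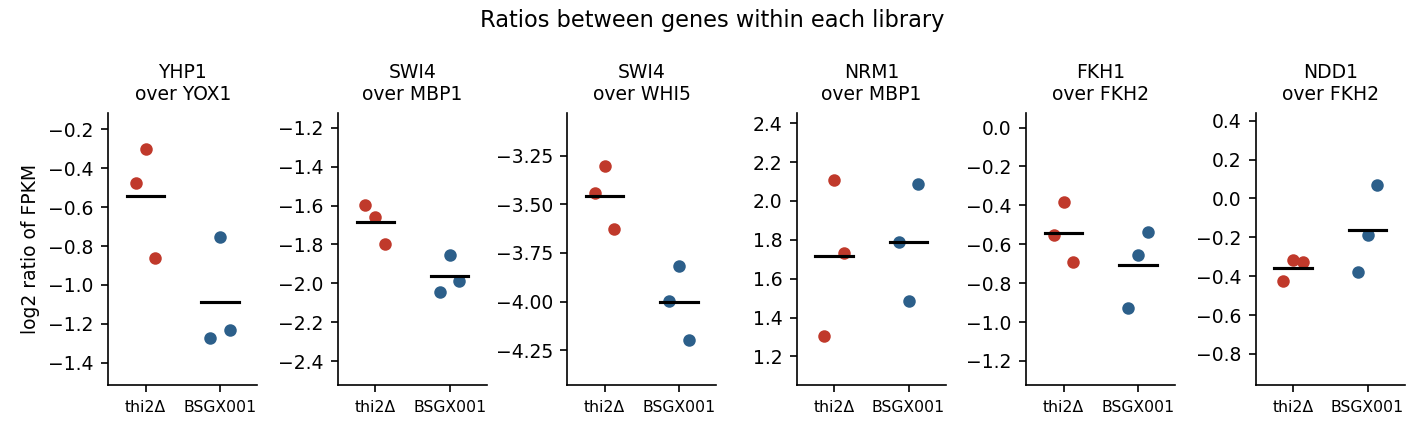
Log2 ratio of FPKM between pairs of the genes within each library, with the 3 libraries labelled BSGX001 (thi2Δ) on the left (red) and the 3 BSGX001 libraries on the right (blue); lines are means, and each panel spans the same number of log2 units. *SWI4* over *MBP1* and *SWI4* over *WHI5* separate the strains, with differences of 0.28 and 0.55, and the other 4 ratios overlap.

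Genes known as targets of these factors, or acting beside them, were read from the same test. Of 9 SBF targets 5 were higher and none was lower in the libraries labelled thi2Δ, with a median log2 fold change of 0.30, where 26.1% of all genes were higher and 25.2% lower with a median of 0.0093. *SVS1*, a cell wall gene, had 79.9 ± 6.70 CPM in the libraries labelled thi2Δ and 44.1 ± 5.25 CPM in BSGX001 (here and below mean ± SD, n = 3 each; log2 fold change 0.85, adjusted p = 2.32e-09). *PCL1*, a G1 cyclin for the kinase Pho85, had 19.5 ± 1.16 CPM in the libraries labelled thi2Δ and 12.8 ± 1.71 CPM in BSGX001 (log2 fold change 0.60, adjusted p = 0.000444). With library totals 7 of the 9 were higher and none lower, where 51.9% of all genes were higher and 10.3% lower with a median of 0.22.

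Of 18 MBF targets 11 were higher and 2 lower, with a median of 0.34, beside the same 26.1% and 25.2% of all genes. *CDC21*, which encodes thymidylate synthase, had 13.6 ± 3.16 CPM in the libraries labelled thi2Δ and 7.25 ± 0.739 CPM in BSGX001 (log2 fold change 0.88, adjusted p = 0.000118). *RFA1*, the large subunit of replication protein A, had 384 ± 11.2 CPM in the libraries labelled thi2Δ and 209 ± 6.31 CPM in BSGX001 (log2 fold change 0.88), but it lies on chromosome I, and outside both regions of doubled level 10 of 17 were higher and 2 lower. *SMC3*, a cohesin subunit, was lower (log2 fold change −0.43). With library totals 12 of the 18 were higher, *RFA1* among them, and 1 lower, beside 51.9% and 10.3% of all genes.

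The ECB list, which holds genes at which Yhp1 and Yox1 act, showed no common direction. Of its 9 genes 2 were higher and 2 lower, beside 26.1% and 25.2% of all genes, and both higher genes lie in the regions of doubled level: *CLN3*, the upstream G1 cyclin, on chromosome I had 85.9 ± 5.90 CPM in the libraries labelled thi2Δ and 35.2 ± 3.64 CPM in BSGX001 (log2 fold change 1.28), and *MCM5*, a subunit of the replicative helicase, in the chromosome XII segment had 155 ± 7.59 CPM in the libraries labelled thi2Δ and 60.4 ± 2.86 CPM in BSGX001 (log2 fold change 1.36). Outside these regions none of 7 was higher and 2 were lower, *MCM2* and *MCM3* (log2 fold changes of −0.31 and −0.27), which encode subunits of the same helicase. With library totals 5 of the 9 were higher and none lower, beside 51.9% and 10.3% of all genes, and the list's median was 0.19, against −0.028 with TMM.

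Of 16 genes of the CLB2 cluster 4 were higher and 5 lower, so that 9 of 16 were called, near the 51.3% of all genes. Their median was −0.17, and with library totals it was 0.047, with 7 higher and 1 lower beside 51.9% and 10.3% of all genes. *KIN3*, a protein kinase gene on chromosome I, was higher (log2 fold change 0.93), as was *SWI5*, a factor of the exit from mitosis (0.54). *IQG1*, needed for cytokinesis, had 79.2 ± 3.24 CPM in the libraries labelled thi2Δ and 119 ± 1.42 CPM in BSGX001 (log2 fold change −0.59), and *BUD4*, a bud site landmark, had 76.9 ± 4.56 CPM in the libraries labelled thi2Δ and 98.5 ± 2.08 CPM in BSGX001 (−0.35). *CLB2*, the mitotic cyclin after which the cluster is named, had 7.82, 8.35 and 11.8 CPM in the libraries labelled thi2Δ and 11.0, 12.1 and 12.6 CPM in BSGX001 and was not called (log2 fold change −0.35, adjusted p = 0.0863).

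Of 15 other cell cycle transcription factors 4 were higher and 4 lower, so that 8 of 15 were called, near the 51.3% of all genes. Among these, *SWI5* (0.54) and *MSA2* (0.47) were higher, and *MSA1* (−0.50) and *RME1* (−0.22) were lower, so that the SBF and MBF partners *MSA1* and *MSA2* differed in direction. Without the third library labelled thi2Δ 5 of these 15 were called in place of 8. With library totals 7 of the 15 were higher and 1 lower, beside 51.9% and 10.3% of all genes. Of the lower genes named from the lists, *SMC3*, *IQG1* and *MSA1* were also called lower with library totals (log2 fold changes of −0.21, −0.38 and −0.29), and *MCM2*, *MCM3*, *BUD4* and *RME1* were not called.

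**Figure D5:**
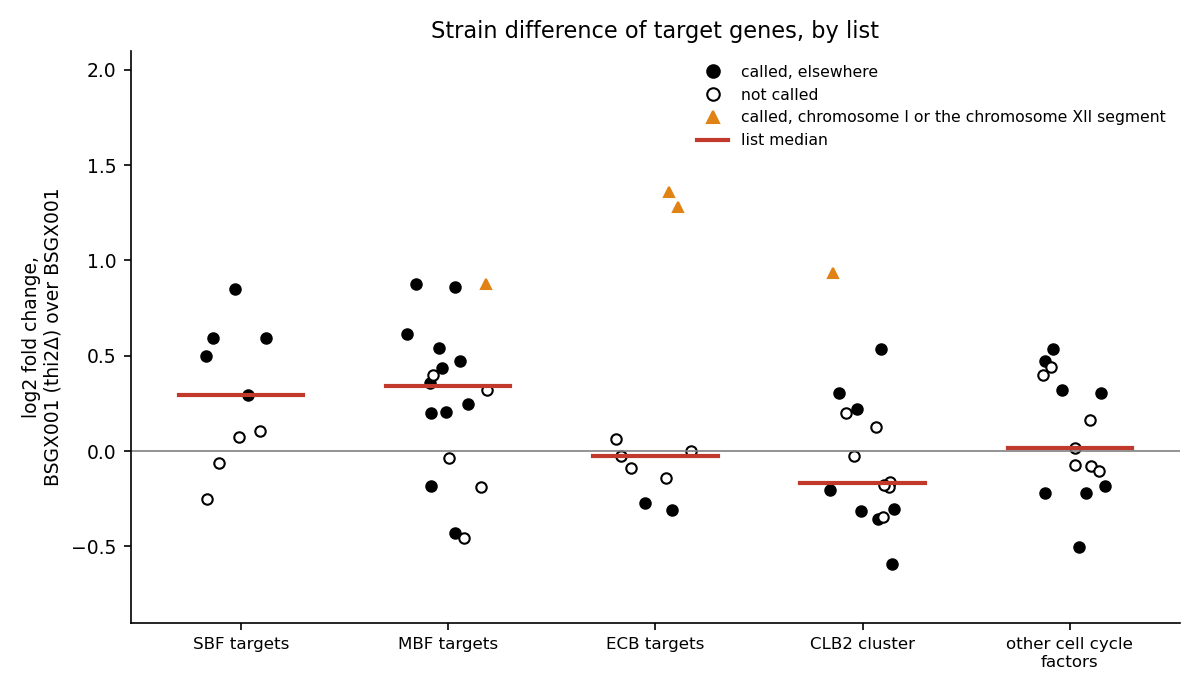
Log2 fold change with TMM scaling, BSGX001 (thi2Δ) over BSGX001, of the genes of each list; filled circles passed an adjusted p under 0.05, open circles did not, orange triangles are called genes of chromosome I or the chromosome XII segment, and red lines are medians. The medians of the SBF and MBF targets lie at 0.30 and 0.34, and those of the other 3 lists between −0.17 and 0.016.

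Over the 6 libraries the genes whose log2 CPM followed *YHP1* most closely, out of 5384 genes that no library covered with fewer than 50 counts, were *PFD1*, which encodes a prefoldin subunit, *TRM12*, a tRNA modification enzyme, and *GLG1*, a glycogenin (Pearson r of 0.997, 0.996 and 0.994). *PFD1* had 14.0, 14.0 and 12.3 CPM in the libraries labelled thi2Δ and 8.33, 9.55 and 7.51 CPM in BSGX001. As with *YHP1*, the lowest of the libraries labelled thi2Δ was the third, and the highest of the BSGX001 libraries was the second. *PFD1* was picked out of 5384 genes for following *YHP1* in these same libraries, so the shared order comes with that choice. These likenesses are a description over 6 libraries that also share the strain difference.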

How the data were processed

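The authors deposited for each library an expected count per gene, which was a whole number throughout and not normalized, and FPKM, which they scaled to coding length and library total. The submitters' processing notes name the build R64 and the tool DESeq; aligner and counter are not given in the sources used here. A further 12 columns of tables for the whole series were not used, and the authors' own fold changes and p-values in them were neither printed nor compared. The labels do not say that replicates came from separate cultures, so p-values measure the spread between libraries, which may be technical.

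Expected counts were tested with edgeR 4.0.16 (R 4.3.3; filterByExpr with at least 10 counts, TMM, robust quasi-likelihood fit), with Benjamini-Hochberg adjustment over 5774 genes and calls at an adjusted p under 0.05. SE was taken as the size of the log2 fold change over the root of F, and 95% intervals from the t distribution with the degrees of freedom of that fit. Alternatives were library totals, median-ratio size factors, other count filters, DESeq2 1.42.0, limma 3.58.1 on log2(FPKM + 1) and log2(FPKM + 0.1), a replicate block, a fit without both regions of doubled level, and each library left out. The closest 2 libraries differed by a chi-square of 4.04 per degree of freedom, so none was a duplicate. The members and lists were chosen with earlier results of these data known. Genes named from lists were *CLN3*, *CLB2* and up to 2 called rises and 2 called falls of largest size per list. A further list and a gene of another are not reported here. Promoters, coordinates and neighbouring genes are from RefSeq R64.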

Additional observations from a re-analysis of the deposited data

How the results depend on the processing

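With library totals 4 of the 10 genes were higher and 0 lower, and limma on log2(FPKM + 1) and on log2(FPKM + 0.1) called 3, none of them lower (0). Of the 2 genes called higher, 1 was left with median-ratio size factors, with DESeq2 and with the replicate block, and 1 to 2 when single libraries were left out. Signs turned with library totals and the limma fits on both FPKM scales: *MBP1* (0.18, 0.17 and 0.18), *NRM1* (0.10, 0.10 and 0.10) and *FKH2* (0.070, 0.070 and 0.071). With single libraries left out the log2 fold change ran from −0.095 to 0.031 for *MBP1*, from −0.23 to 0.032 for *NRM1* and from −0.034 to 0.12 for *FKH1*; none of these was called, and the cause was not tested. All genes called numbered 2964, or 1507 higher and 1457 lower, and with library totals 2999 higher and 595 lower. Libraries of the same replicate number did not deviate together (correlations of 0.067, −0.082 and −0.045), and the replicate block called 1530 higher and 1490 lower. Of the log2 fold changes of the 10 genes under all alternatives, 113 kept direction and side of the threshold, 17 lost and 5 gained a call, and 15 changed sign. The *THI2* result held under every alternative. The order of levels was the same in the 1 alternative run for it, CPM over the length that counts and FPKM imply. That alternative rescales each library as a whole, so it could hardly change the order and is no check on it. Depth limits *YHP1* and *SWI4* most, at 75 to 285 counts per library.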
